A study of Mus musculus with 4 samples.

Results

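The long noncoding RNAs (lncRNAs) Malat1, Meg3, Rian, Miat, Snhg11 and Neat1 are described here in single nuclei of the mouse cortex. They were grouped as RNAs that stay largely in the nucleus, which was not measured, as only nuclei were profiled. These RNAs are 6 of the 32285 genes counted in each nucleus, and all 6 were found by their symbols in every lane. The 6 genes were chosen on values measured in these same libraries, so their levels and differences are given as a description with no test. The nuclei came from adult C57BL/6J wild-type mice that had received daily intraperitoneal saline, or risperidone at 4 mg/kg, for 21 days from postnatal day (PND) 22 and were then kept without drug. Risperidone is an antipsychotic that blocks dopamine and serotonin receptors. At PND 90 the right cortical hemispheres of 10 mice, 5 of each sex, were pooled for each condition, and the sorted nuclei of each of the resulting pools, 1 for saline and 1 for risperidone, were loaded on 2 Chromium lanes.

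Most messenger RNAs leave the nucleus for translation, whereas a set of lncRNAs is kept there and is therefore prominent in RNA from isolated nuclei. Malat1 gathers in nuclear speckles, where splicing factors are stored, and its neighbour Neat1 is the scaffold of paraspeckles. Meg3 and Rian are expressed from the maternal chromosome within the imprinted Dlk1-Dio3 region and are abundant in neurons. Miat, also named Gomafu, forms nuclear spots of its own in neurons and binds splicing factors, and Snhg11 is a host gene of small nucleolar RNAs.

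The lanes of a pool are technical runs, so each condition has n = 1 and a treatment effect cannot be told apart from any other difference between the pools. All intervals given are for counting error alone. After removal of doublet-like nuclei and of nuclei under 2000 unique molecular identifiers (UMIs, the count of captured RNA molecules), 20055 and 23551 saline and 20500 and 19455 risperidone nuclei were used, with medians of 3645, 4065, 5808 and 7865 UMIs. Mitochondrial RNA took 0.0382% and 0.0374% of UMIs in saline, against 0.0167% and 0.0152% in risperidone. Xist, which female cells express, was at 282 and 290 CPM in saline (CPM are UMIs of a gene per 1000000 UMIs) and 430 and 423 CPM in risperidone, and the summed Y-linked genes were at 121 and 122 against 106 and 104 CPM. The part of these pool differences in the results below was not tested, apart from the values given by depth and by sex.

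A nucleus was put in a cell class by its UMIs of marker genes, and classes are named with "-like" for that reason. The 8 classes used were glutamatergic-like nuclei (9483 and 11190 in saline, 11984 and 11247 in risperidone), PV-like, Sst-like and Lamp5-like interneurons, striatal-type spiny projection-like neurons, and the glial astrocyte-like, oligodendrocyte-like and oligodendrocyte precursor-like nuclei. The smallest group was 90 oligodendrocyte-like nuclei in risperidone lane 1. Among the 10 leading genes of each of these classes were 1 to 6 of its own markers and none of another class. Nuclei were classed by these markers, so this was largely set in advance and is no check of the classes. The share of a class that fell in a cluster of the same class went from 56.4% in Lamp5-like to 90.4% in glutamatergic-like nuclei. The spiny projection-like class rests most on its threshold, since 1188 nuclei lay within 20% of it and 1234 were in the class. When nuclei of any depth were clustered, most astrocyte-like nuclei of the pools fell in different clusters. Of the 3 astrocyte-like clusters, cluster 1 held 1076 and 1085 saline but 24 and 56 risperidone nuclei, and cluster 31 held 23 and 25 saline but 1144 and 947 risperidone nuclei, while cluster 30 held 135 and 92 saline and 149 and 123 risperidone nuclei.

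RNA released from broken nuclei enters every droplet. From glial genes in neuronal classes and neuronal genes in glial classes, none of them used as markers, an upper estimate of RNA from other nuclei was made for each class and lane. It was 43.4% and 43.7% of UMIs in saline and 40.9% and 37.2% in risperidone for glutamatergic-like nuclei. For astrocyte-like nuclei it was 27.0% and 26.6% in saline and 20.6% and 15.6% in risperidone. Low levels in a class are read against this estimate below.

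The genes lie on GRCm38 as follows. Malat1 is on chromosome 19 at chr19:5795690-5802672, on the minus strand, and Neat1 at chr19:5824708-5845478, on the same strand and 22.0 kb away. Meg3 is at chr12:109541001-109571726 and Rian at chr12:109603940-109661716, both on the plus strand and 32.2 kb apart. Miat is at chr5:112213228-112229395 on the minus strand, and Snhg11 at chr2:158375638-158386145 on the plus strand. The annotation used for these positions lists Snhg11 as a protein-coding gene, although it is treated here as an lncRNA. Rian spans 4 microRNA and 13 snoRNA genes, Meg3 spans 2 microRNA genes and Snhg11 2 snoRNA genes. Gm26953, on the opposite strand, overlaps Miat and had 138, 170, 537 and 571 UMIs in the 4 lanes, in the order saline lane 1, saline lane 2, risperidone lane 1 and risperidone lane 2, which is used throughout. Miat itself had 18913, 24664, 25435 and 30746 UMIs.

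Runs of A within a transcript are shown because 3′ libraries prime on A-rich RNA, so that unspliced or non-polyadenylated RNA can be captured too. The longest run in the GENCODE vM21 transcripts of each of 3 members is printed 5′ to 3′, with the run in capitals and 25 bases on either side.
Malat1, chr19:5795963-5796024, minus strand, its single exon: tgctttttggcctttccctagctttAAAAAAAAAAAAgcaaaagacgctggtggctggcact
Rian, chr12:109652204-109652268, plus strand, exon 2 of 2: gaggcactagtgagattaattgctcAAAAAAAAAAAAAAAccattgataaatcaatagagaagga
Snhg11, chr2:158379002-158379060, plus strand, exon 2 of 2: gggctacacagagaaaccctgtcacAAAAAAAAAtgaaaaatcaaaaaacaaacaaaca

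The Malat1 run of 12 A ends 298 bases before the annotated 3′ end. It lies in the A-rich stretch that, as background, pairs with upstream U-rich motifs in a triple helix at the processed end of Malat1, and a small tRNA-like RNA that is cut from the precursor follows just after it. Of 32158 genes with annotated transcripts, 10.2% held a run of 12 or more. A run at least as long as the 15 of Rian was in 5.11% of genes, and as the 9 of Snhg11 in 22.2%. The longest runs in Neat1 and Miat were 7 and 4, lengths reached by 41.4% and 95.9% of genes. Among genes whose longest transcript was within a factor of 2 of that of Malat1, 22.2% held a run of 12 or more. By the same comparison, runs as long were in 12.5% of genes for Rian and 40.7% for Snhg11. For Neat1 and Miat the shares were 90.9% and 100%. Introns were not searched.

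Miat carries repeats of the 7 bases TACTAAC, the sequence of a branch point, which the splicing factor Sf1 recognises. A Miat transcript held 6 copies of TACTAAC on its own strand and none of the reverse complement. As many copies were in 0.0124% of genes, and at least 1 copy in 8.09%. The stretch of 150 bases with the most copies is shown with the repeats in capitals.
Miat, chr5:112217306-112217455, minus strand, exon 7 of 7: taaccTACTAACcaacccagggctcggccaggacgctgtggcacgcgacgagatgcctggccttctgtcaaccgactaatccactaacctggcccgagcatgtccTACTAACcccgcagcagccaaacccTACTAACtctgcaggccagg

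Across all nuclei used, Malat1 had more UMIs than any other gene in each of the 4 lanes. Its level was 21054 and 21290 CPM in saline and 33799 and 32497 CPM in risperidone, or 2.11%, 2.13%, 3.38% and 3.25% of all UMIs. Meg3 ranked 4 and 5 among genes in the saline lanes, at 10037 and 9797 CPM, and 11 in both risperidone lanes, at 7406 and 7168 CPM. Malat1 was higher and Meg3 lower in both risperidone lanes. The groups of lanes did not overlap for either gene, as for 91.2% of all genes of at least 10 CPM (TMM scaling, described below). Nothing is therefore read from lanes being apart. Together the 6 lncRNAs made up 3.33% and 3.33% of UMIs in saline and 4.39% and 4.22% in risperidone.

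Snhg11 followed at 1351 and 1351 CPM in saline and 1655 and 1607 CPM in risperidone. Rian was at 631 and 625 CPM against 807 and 784 CPM. Both were higher in each risperidone lane than in either saline lane. Miat, at 217 and 213 against 185 and 179 CPM, and Neat1, at 19.03 and 20.71 against 13.30 and 13.65 CPM, were lower in both risperidone lanes. With 91.2% of genes having their lanes apart, nothing is read from this for these members either. Divided by the length of the gene, a scale on which a 3′ library need not be even between genes, Malat1 had 3015 and 3049 CPM per kb in saline and Meg3 327 and 319. Snhg11 stood at 129 CPM per kb in both saline lanes, Miat at 13.4 and 13.2, Rian at 10.9 and 10.8 and Neat1 at 0.916 and 0.997. The order of Malat1, Meg3 and Snhg11 was the same in the risperidone lanes, whereas Rian, at 14.0 and 13.6, stood above Miat there, at 11.4 and 11.1 CPM per kb. In plain CPM Rian stood above Miat in all 4 lanes.

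**Figure D1:**
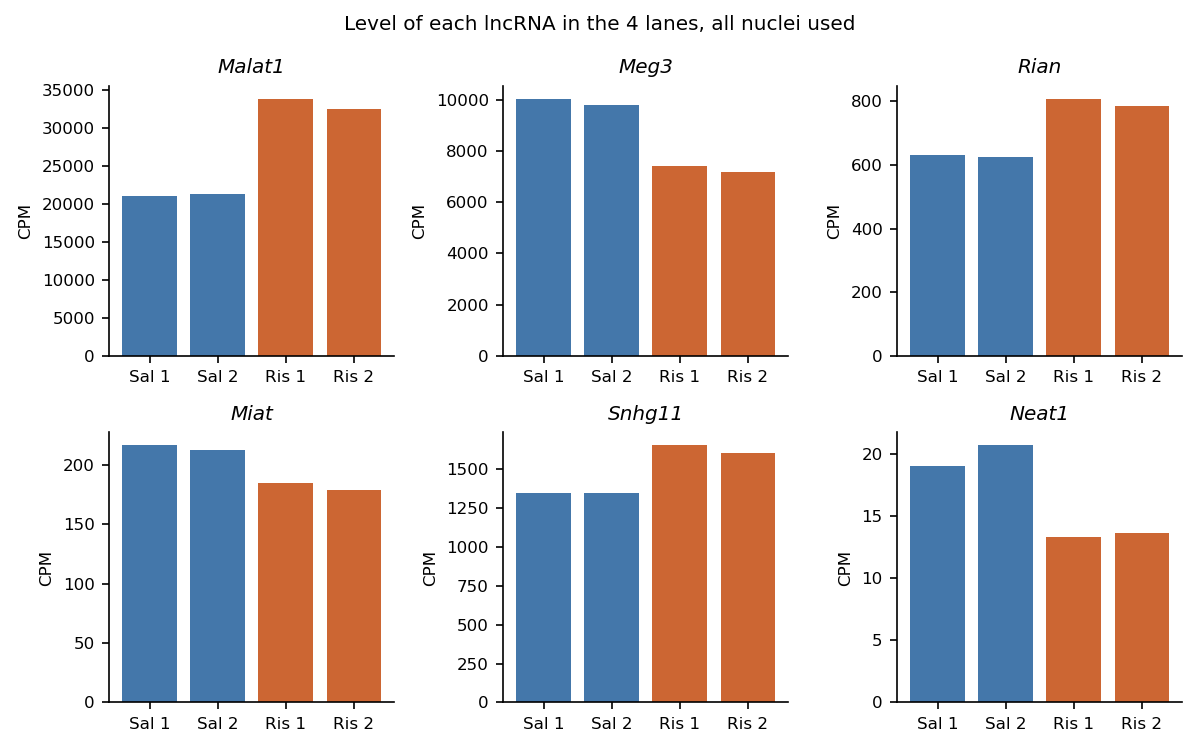
Bars show the level of each lncRNA in CPM over all nuclei used in saline lanes 1 and 2 (blue) and risperidone lanes 1 and 2 (orange), each panel with its own axis from 0. Malat1, Rian and Snhg11 stood higher in both risperidone lanes, and Meg3, Miat and Neat1 lower.

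Thinned to 2000 UMIs, a nucleus of median Malat1 content held 40 Malat1 UMIs in either saline lane, 64 in risperidone lane 1 and 61 in lane 2. For Meg3 the medians were 19, 18, 14 and 13. Malat1 was found in 100% of nuclei used and Meg3 in 98.7% to 100% at this equal depth (99.2% to 100% unthinned). Snhg11 was found in 91.1% to 93.8% of thinned nuclei and Rian in 68.8% to 76.7%, against 97.4% to 98.4% and 85.8% to 94.7% unthinned. Miat was present in 33.2% and 32.4% of saline and 28.5% and 27.4% of risperidone nuclei at equal depth. Without thinning the order turned, to 52.5% and 54.9% against 60.7% and 66.5%, so that no order is read from the unthinned shares. Neat1 was in 4.00%, 4.35%, 2.22% and 2.95% of thinned nuclei and in 6.71%, 7.81%, 6.40% and 8.08% of unthinned nuclei.

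**Figure D2:**
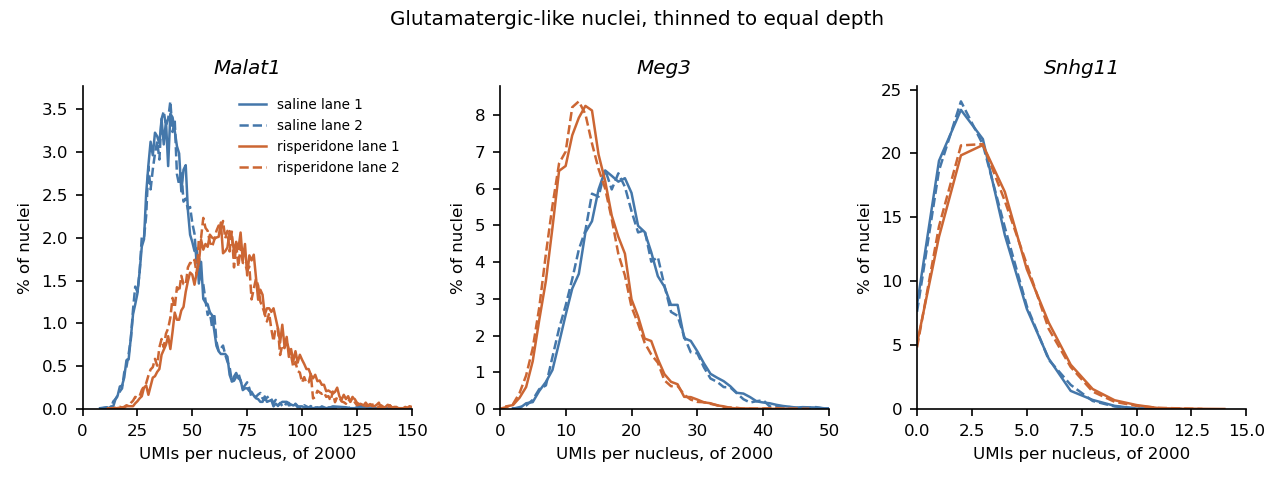
Lines show the percentage of glutamatergic-like nuclei (vertical axis) with a given number of UMIs of Malat1, Meg3 or Snhg11 after each nucleus was thinned to 2000 UMIs (horizontal axis), for saline (blue) and risperidone (orange), lane 1 solid and lane 2 dashed. The Malat1 curves of the risperidone lanes peak to the right of the saline lanes and are wider, the Meg3 curves lie to the left, and the Snhg11 curves are shifted right by less than the width of either.

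In glutamatergic-like nuclei the thinned Malat1 count had medians of 41, 41, 67 and 64, with quartiles of 33 and 50 in both saline lanes, 54 and 81 in risperidone lane 1 and 51 and 77 in risperidone lane 2. The variance was 4.87 and 4.79 times the mean in saline and 6.20 and 6.07 times in risperidone, where counting alone gives values near 1. Meg3 varied at 2.52 and 2.44 times its mean in saline and 1.98 and 2.05 times in risperidone. Rian, Miat, Snhg11 and Neat1 stayed between 1.03 and 1.16 times. This measure can rise with the mean count, so it does not rank genes or pools of different levels by their spread. In saline lane 1 the mean thinned count was 42.6 for Malat1, 19.5 for Meg3 and 1.22 for Rian, and in risperidone lane 1 it was 68.5 for Malat1. Over these nuclei the correlations between members were low. Counting error in sparse counts lowers such values, so independence is not read from them. The highest Spearman correlation of a pair was 0.15, between Meg3 and Rian, which had 0.14, 0.12, 0.15 and 0.14 in the 4 lanes of 9483 to 11984 nuclei. Malat1 and Meg3 had 0.12 in either saline lane but 0.02 and 0.01 in risperidone. These points share the lane and a fixed total, and correlations of this size in sparse counts are a description only.

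Malat1 had a mean level over glial classes 1.55 times that over neuronal classes. It was highest in astrocyte-like nuclei, at 31903 and 32170 CPM in saline and 55649 and 55321 CPM in risperidone. Oligodendrocyte-like nuclei followed, at 27502, 30441, 55597 and 58818 CPM, and the order of these classes differed between lanes. The next classes were spiny projection-like (21826, 23760, 36997 and 35436 CPM) and glutamatergic-like nuclei (21663, 21817, 35046 and 33497 CPM). Oligodendrocyte precursor-like nuclei came after them, and PV-like, Sst-like and Lamp5-like interneurons were lowest, the last at 14302, 14841, 21496 and 20670 CPM. From oligodendrocyte-like nuclei downward each class lay above the next in all 4 lanes, although the ranges over the lanes of both pools overlapped for every pair of neighbours.

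Neat1 had the steepest contrast between classes. It stood at 177 and 156 CPM in saline and 209 and 164 CPM in risperidone in astrocyte-like nuclei, and at 177, 224, 111 and 234 CPM in oligodendrocyte-like nuclei, whose lanes overlapped with the former. Oligodendrocyte precursor-like nuclei held 33.9, 20.9, 23.6 and 21.3 CPM, and every neuronal class stayed between 0.974 and 15.4 CPM. The mean level of glial classes was 15.3 times that of neuronal classes. At 2000 UMIs Neat1 was found in 26.5% and 25.9% of saline and 26.5% and 23.2% of risperidone astrocyte-like nuclei (33.3%, 30.9%, 32.7% and 29.7% unthinned, with medians of 2554, 2604.5, 2317 and 2646 UMIs). In glutamatergic-like nuclei it was in 2.51% and 2.43% against 1.39% and 1.35% (4.98%, 5.97%, 4.16% and 4.93% unthinned, with medians of 4378, 4925.5, 6256 and 8526 UMIs). RNA of other nuclei was estimated to give 0.86, 0.82, 0.98 and 0.89 times the Neat1 level of glutamatergic-like nuclei, and no expression is read from it.

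Meg3 and Rian were neuronal. Meg3 was at 14974 and 14843 CPM in saline and 10529 and 10488 CPM in risperidone PV-like nuclei, and at 14832, 14379, 11126 and 10449 CPM in Sst-like nuclei. These classes were not ordered consistently over the lanes. Lamp5-like (12183, 11766, 8865 and 8650 CPM), glutamatergic-like (9875, 9648, 7104 and 6917 CPM) and spiny projection-like nuclei (8669, 8195, 4973 and 5007 CPM) followed, each above the next in all 4 lanes. Glial levels were lower, at 3066, 3158, 1345 and 885 CPM in astrocyte-like, 5304, 4584, 2566 and 1883 CPM in oligodendrocyte-like and 3404, 2968, 1987 and 1829 CPM in precursor-like nuclei. The estimated RNA of other nuclei amounted to 0.87, 0.82, 1.12 and 1.26 times the Meg3 level of astrocyte-like nuclei to 0.93, 0.90, 1.02 and 0.79 times that of oligodendrocyte-like nuclei and to 0.87, 0.82, 0.90 and 0.85 times that of precursor-like nuclei, so most or all of the Meg3 level in glial classes may lie within this upper estimate. Rian had a like order, with 832, 847, 1072 and 1017 CPM in Sst-like, 836, 837, 1036 and 988 CPM in PV-like and 621, 618, 800 and 781 CPM in glutamatergic-like nuclei, and 254, 273, 186 and 158 CPM in astrocyte-like nuclei. Every lane of every neuronal class lay above every lane of the glial classes for Rian. The mean over neuronal classes was 3.70 times that over glial classes for Meg3 and 2.88 times for Rian.

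Miat was highest in glutamatergic-like nuclei, at 246 and 242 CPM in saline and 207 and 203 CPM in risperidone, above every lane of every other class. Lamp5-like nuclei came next at 187, 168, 138 and 144 CPM, and Sst-like nuclei at 140, 126, 107 and 112 CPM. PV-like nuclei, at 74.8, 91.3, 56.1 and 59.3 CPM, were the lowest neuronal class by their mean. Spiny projection-like nuclei held 112, 105, 42.4 and 38.0 CPM, more than PV-like nuclei in both saline lanes but less in both risperidone lanes. The Miat level of PV-like nuclei was no higher than the estimated RNA of other nuclei in 3 of the 4 lanes (1.43, 0.93, 1.54 and 1.69 times the measured level), and spiny projection-like nuclei had 0.88, 1.03, 1.67 and 1.40 times. Astrocyte-like nuclei held the least, 55.0, 57.8, 40.6 and 31.5 CPM, which the estimate matched too (1.04, 0.97, 0.92 and 0.88 times).

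Snhg11 was highest in PV-like nuclei, at 1803 and 1794 CPM in saline and 2299.7 and 2228 CPM in risperidone, and near to it in Sst-like (1669, 1692, 2244 and 2083 CPM) and Lamp5-like nuclei (1691, 1663, 2173 and 2132 CPM). The Sst-like and Lamp5-like classes were not ordered, each being higher in 2 lanes. Glutamatergic-like nuclei had 1340.5, 1340.3, 1613 and 1581 CPM and spiny projection-like nuclei 1225, 1221, 1292 and 1266 CPM, and neither range overlapped with that of a neighbour. Glial classes stayed between 361 and 876 CPM. The mean of neuronal classes was 2.79 times that of glial classes.

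**Figure D3:**
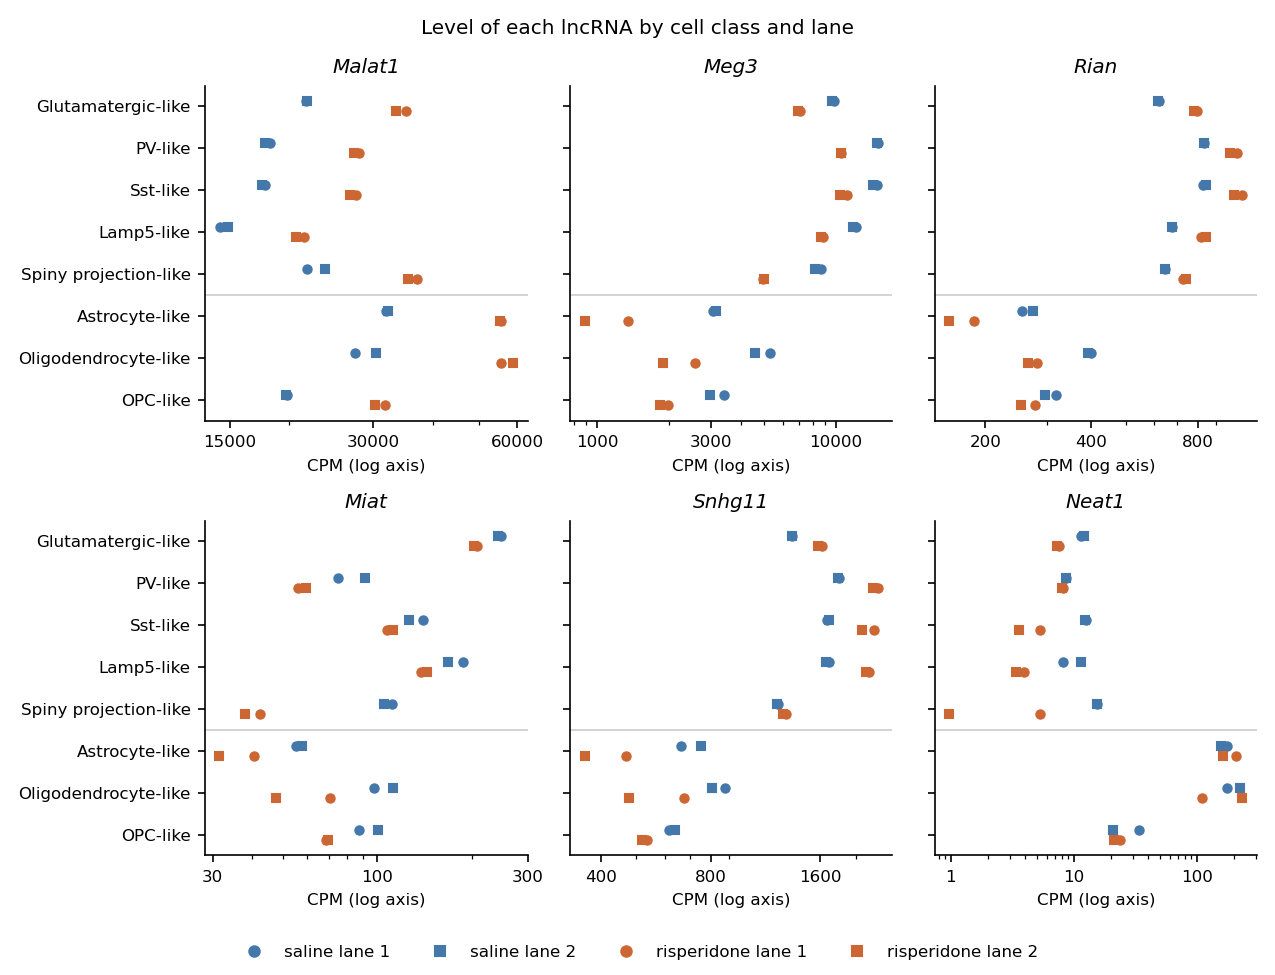
Points show the level of each lncRNA in CPM (log axis, each panel with its own range) for 8 cell classes, with saline in blue and risperidone in orange, lane 1 as circles and lane 2 as squares, and neuronal classes above the grey line. Meg3, Rian and Snhg11 are high in neuronal classes and Neat1 in astrocyte-like and oligodendrocyte-like nuclei, while Miat is highest in glutamatergic-like nuclei.

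Classes with few nuclei were summed without the minimum of 2000 UMIs. In endothelial-like nuclei (65, 55, 113 and 140) Malat1 was at 27351, 28354, 46206 and 42468 CPM and Neat1 at 92.2, 189, 186 and 191 CPM, from 12, 27, 24 and 42 UMIs. Microglia-like nuclei (10, 8, 59 and 75) held only 13 UMIs of Neat1 in all. Vip-like interneurons (37, 41, 121 and 108) had Meg3 at 14331, 13155, 9442 and 10048 CPM, in the range of the other interneuron classes.

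Between the pools, Malat1 was 1.45 times higher in risperidone after scaling by edgeR's TMM factors, which set the lanes on a common scale over all genes. The log2 ratio was 0.54 (exact conditional 95% interval 0.53 to 0.54) and lay between 0.51 and 0.57 over the 4 pairs of lanes. Meg3 stood at 0.682 times its saline level, a log2 ratio of -0.55 (-0.55 to -0.55, pairs of lanes -0.58 to -0.52). Neat1 was at 0.627 times, or -0.67 (-0.74 to -0.61, pairs -0.76 to -0.57). A gene of at least 10 CPM was called when its log2 ratio was at least 0.5 in size with the risperidone lanes on one side of the saline lanes. Of 7469 genes tested in all nuclei, 3.16% were called higher and 7.50% lower, and of the 6 members Malat1 was higher and Meg3 and Neat1 lower. The members were chosen on such values, so nothing is read from these shares about them. Of all genes tested, 91.2% had lanes that did not overlap. Within classes this share went from 43.3% in precursor-like to 89.4% in glutamatergic-like nuclei. The lanes of a pool are technical runs, so lanes being apart does not measure a spread between mice.

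The other members differed by less. Rian had a log2 ratio of 0.23 (0.22 to 0.24), Snhg11 of 0.16 (0.16 to 0.17) and Miat of -0.35 (-0.36 to -0.33), and for each both risperidone lanes lay on one side of both saline lanes. The median of the 6 members was -0.09 and that of all genes tested -0.05. On plain CPM the median of all genes moved from -0.05 to 0.06 and the calls turned from 236 higher and 560 lower to 479 higher and 289 lower. On that scale Malat1 was at 0.64, Meg3 at -0.44, under the threshold, and Neat1 at -0.57, and no member changed its sign. Neat1 fell under the threshold with equal weight for each class (-0.21), with no UMI minimum (-0.47) and at a minimum of 4000 UMIs (-0.41), and Meg3 in male-called nuclei (-0.46).

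Malat1 was higher in risperidone in all 8 classes, and Meg3 was lower in all 8 except for precursor-like nuclei at a minimum of 4000 UMIs. The classes come from the same pools and share the RNA of other nuclei, so they are not separate observations. How many of all genes kept their sign in all 8 classes was not counted, and nothing is read from this count. In glutamatergic-like nuclei 4.24% of genes were called higher and 7.82% lower, and Malat1 (log2 ratio 0.56) and Meg3 (-0.57, or -0.48 on plain CPM) were among them. PV-like nuclei had 5.92% and 7.15% called, with Malat1 higher (0.52, or 0.39 with the estimated RNA of other nuclei taken out) and Meg3 (-0.60, or -0.495, under the threshold, on a total without the 6 members) and Miat (-0.64, or -0.45 without saline lane 2) lower. Among Sst-like nuclei, where 7.84% and 8.09% were called, Malat1 was called (0.57) and Meg3, at -0.49, was not. In Lamp5-like nuclei, with 9.96% and 8.69% called, the Malat1 ratio of 0.47 was just under the threshold (it reached it, at 0.50, without lane 2 of either pool, and was 0.53 on plain CPM) and that of Meg3 was -0.50, or -0.48 without saline lane 1 and -0.49 without risperidone lane 2. Spiny projection-like nuclei had 9.38% and 17.5% called, including Malat1 (0.58), Meg3 (-0.83) and Miat (-1.51, from 174, 212, 32 and 39 UMIs). Miat in PV-like and spiny projection-like nuclei was at or under the estimated RNA of other nuclei in 3 of the 4 lanes. When clusters were used in place of marker UMIs, the ratios of this class were -0.44 for Meg3 and -0.23 for Miat.

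In astrocyte-like nuclei 9.18% of genes were called higher and 13.5% lower, with Malat1 higher (0.74) and Meg3 (-1.67, or -0.51 at a minimum of 4000 UMIs), Rian (-0.73), Miat (-0.79) and Snhg11 (-0.93) lower. At that minimum Malat1 (0.40) and Snhg11 in this class fell under the threshold, as did Rian in male-called nuclei (-0.46). Oligodendrocyte-like nuclei had 13.5% and 17.2% called, with Malat1 higher (0.91) and Meg3 (-1.23, or -0.56 with clusters), Rian (-0.60), Miat (-0.98) and Snhg11 (-0.65) lower. Rian and Snhg11 there fell under the threshold with clusters (-0.24 and -0.14) and at a minimum of 4000 UMIs (-0.043 and -0.051), and Miat with the RNA of other nuclei taken out (-0.22). In precursor-like nuclei, with 11.9% and 9.17% called, Malat1 was higher (0.59) and Meg3 (-0.80) and Miat (-0.51, interval -0.96 to -0.05) lower. Miat was at -0.36 there without saline lane 2 and -0.47 without risperidone lane 1. It had 62, 107, 28 and 53 UMIs in astrocyte-like and 48, 100, 23 and 25 in oligodendrocyte-like nuclei. Precursor-like nuclei held 31, 48, 32 and 59 Miat UMIs. RNA of other nuclei was estimated at 1.07, 0.80, 0.93 and 0.78 times the Miat level of oligodendrocyte-like nuclei. The estimated share of RNA from other nuclei, which is rich in Meg3, Rian and Snhg11, was also smaller in the risperidone lanes of all 3 glial classes. It was 49.8% and 42.5% against 36.0% and 20.8% in oligodendrocyte-like and 29.9% and 25.1% against 24.5% and 21.8% in precursor-like nuclei. With the estimate taken out, the ratios in astrocyte-like nuclei were -1.95 for Rian and -1.72 for Snhg11, and Meg3 was left with no value. In oligodendrocyte-like nuclei they were then -1.97 for Meg3, -1.75 for Rian and -1.40 for Snhg11, and in precursor-like nuclei -1.19, -0.85 and -0.86. For Meg3 and Rian the estimate was 1.02 times the measured level in risperidone lane 1 of oligodendrocyte-like nuclei. Nothing of either was left in that lane, so no size is read from these 2 ratios. In the risperidone lanes the upper estimate was 0.88 and 0.77 times the Rian level of astrocyte-like nuclei. It was 0.90 and 0.85 times the Meg3 level of precursor-like nuclei there. The other ratios with the estimate taken out rest on what an upper estimate leaves, so no size is read from them either. At a minimum of 4000 UMIs, Rian (0.48) and Miat (0.82) in astrocyte-like and Meg3 (0.28) in precursor-like nuclei turned their sign. Without risperidone lane 2, Snhg11 in oligodendrocyte-like nuclei was at -0.38.

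Rian and Snhg11 had ratios of opposite sign in most neuronal classes and in glia. Rian ratios were 0.26 in glutamatergic-like, 0.17 in PV-like, 0.25 in Sst-like, 0.24 in Lamp5-like and 0.11 in spiny projection-like nuclei (-0.0020 with the RNA of other nuclei taken out and 0.045 without risperidone lane 2), and they were negative in the 3 glial classes. Snhg11 ratios were 0.16, 0.23, 0.30 and 0.31 in the first 4 of these classes and -0.02 in spiny projection-like nuclei, where the lanes overlapped and plain CPM gave 0.06. For Neat1 the classes that hold most of it gave no steady ratio. It was 0.06 (-0.14 to 0.25) in astrocyte-like and -0.21 (-0.50 to 0.08, pairs of lanes -1.09 to 0.35) in oligodendrocyte-like nuclei, and the lanes overlapped in both. At a minimum of 4000 UMIs the astrocyte-like ratio was -0.65. The oligodendrocyte-like ratio was -0.90 with clusters in place of marker UMIs, -0.98 without risperidone lane 2, 0.13 without risperidone lane 1 and 0.015 without saline lane 2. In oligodendrocyte-like nuclei of any depth (380, 418, 502 and 558) Neat1 was at 254 and 252 CPM in saline and 378 and 481 CPM in risperidone. The 10 CPM minimum left Neat1 out of the 5 neuronal classes.

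**Figure D4:**
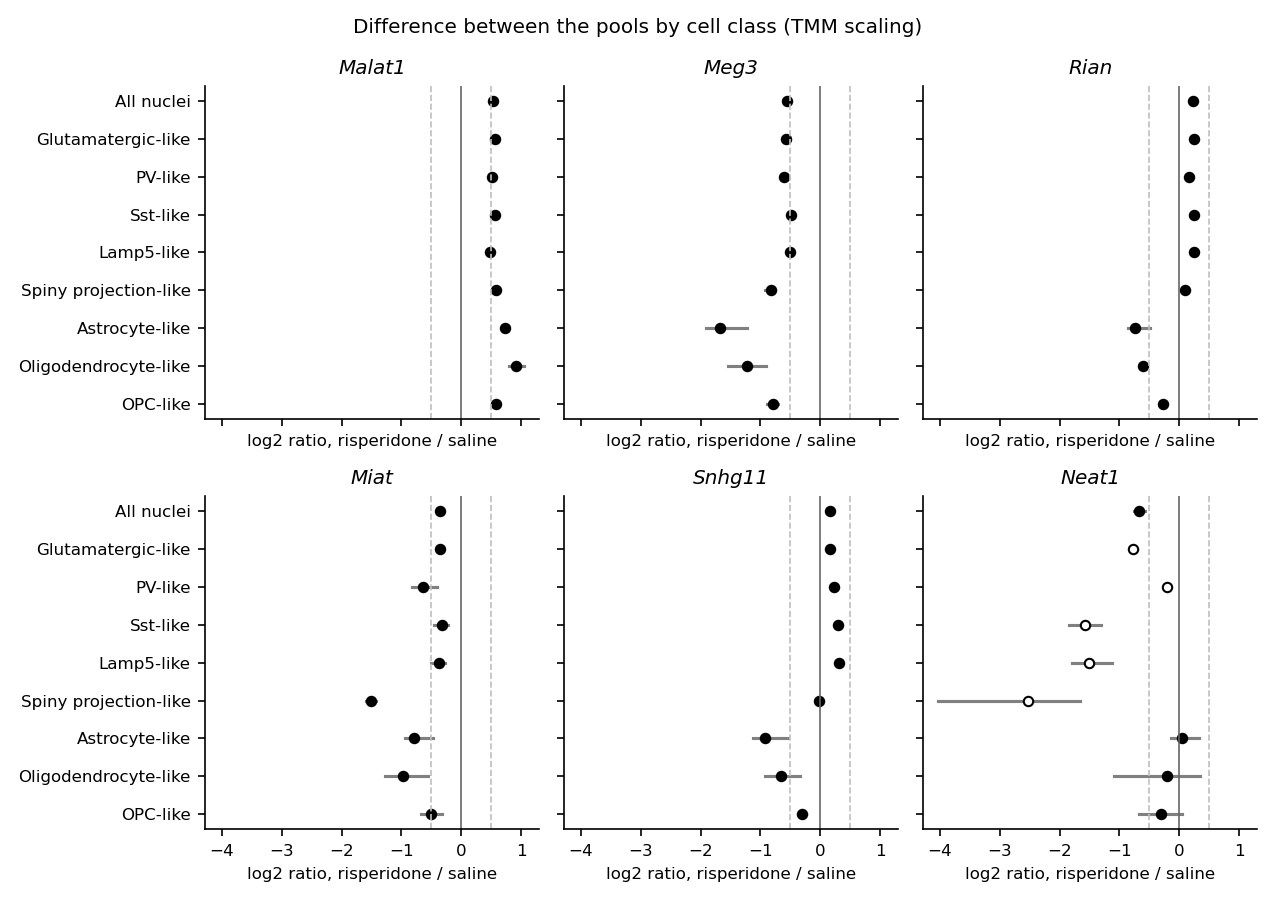
Points show the log2 ratio of risperidone to saline (TMM scaling) for each lncRNA in all nuclei and in 8 classes, filled where the gene reached 10 CPM and open where it did not, with grey lines for the lowest and highest of the 4 pairs of lanes and dashed lines at -0.5 and 0.5. Malat1 lies to the right of 0 and Meg3 and Miat to the left in every class, while Rian and Snhg11 lie to the left of 0 in glial classes and, apart from Snhg11 in spiny projection-like nuclei, to the right in neuronal classes.

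Depth differed between the pools, so glutamatergic-like nuclei were also compared within ranges of UMIs. In nuclei of 4000 to 6000 UMIs (3042, 3357, 4063 and 1765) Malat1 was at 20796 and 20845 CPM in saline and 33345 and 30282 CPM in risperidone. In nuclei of 2000 to 3000 UMIs (2037, 1768, 347 and 121) it was at 21163, 21421, 28905 and 24340 CPM. Malat1 rose with depth in the risperidone lanes, to 38345 and 35612 CPM above 12000 UMIs, and less so in the saline lanes, to 23919 and 24770 CPM. The log2 ratio on CPM was between 0.38 and 0.64 over the 6 ranges, and the lanes of the pools did not overlap in any. With TMM scaling within the range, the ratio was 0.15 at 2000 to 3000 and 0.37 at 3000 to 4000 UMIs, under the threshold. Over glutamatergic-like nuclei of all depths, 89.4% of genes tested had lanes that did not overlap. Nothing is therefore read from lanes being apart within these ranges, for Malat1 or for the members below.

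Meg3 stayed between 9166 and 10343 CPM in saline and between 6569 and 7479 CPM in risperidone over the same ranges, with CPM ratios of -0.53 to -0.43. On CPM, Rian (0.21 to 0.36), Snhg11 (0.13 to 0.37) and Miat (-0.33 to -0.20) kept their signs and their lanes apart in every range. With TMM scaling within the range, Rian (-0.029) and Snhg11 (-0.014) turned their sign at 2000 to 3000 UMIs. Neat1 was lower in each lane at 8000 to 12000 than at 2000 to 3000 UMIs, going from 15.6, 23.4, 21.9 and 31.7 CPM at 2000 to 3000 UMIs to 7.89, 8.93, 5.99 and 5.93 CPM at 8000 to 12000 UMIs, but above 12000 UMIs it was at 17.7, 8.81, 15.7 and 9.11 CPM. Its ratio went from 0.35, with overlapping lanes, to -0.88 at 6000 to 8000 and -0.08 above 12000 UMIs, where the lanes overlapped again, so it has no single value across depths.

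**Figure D5:**
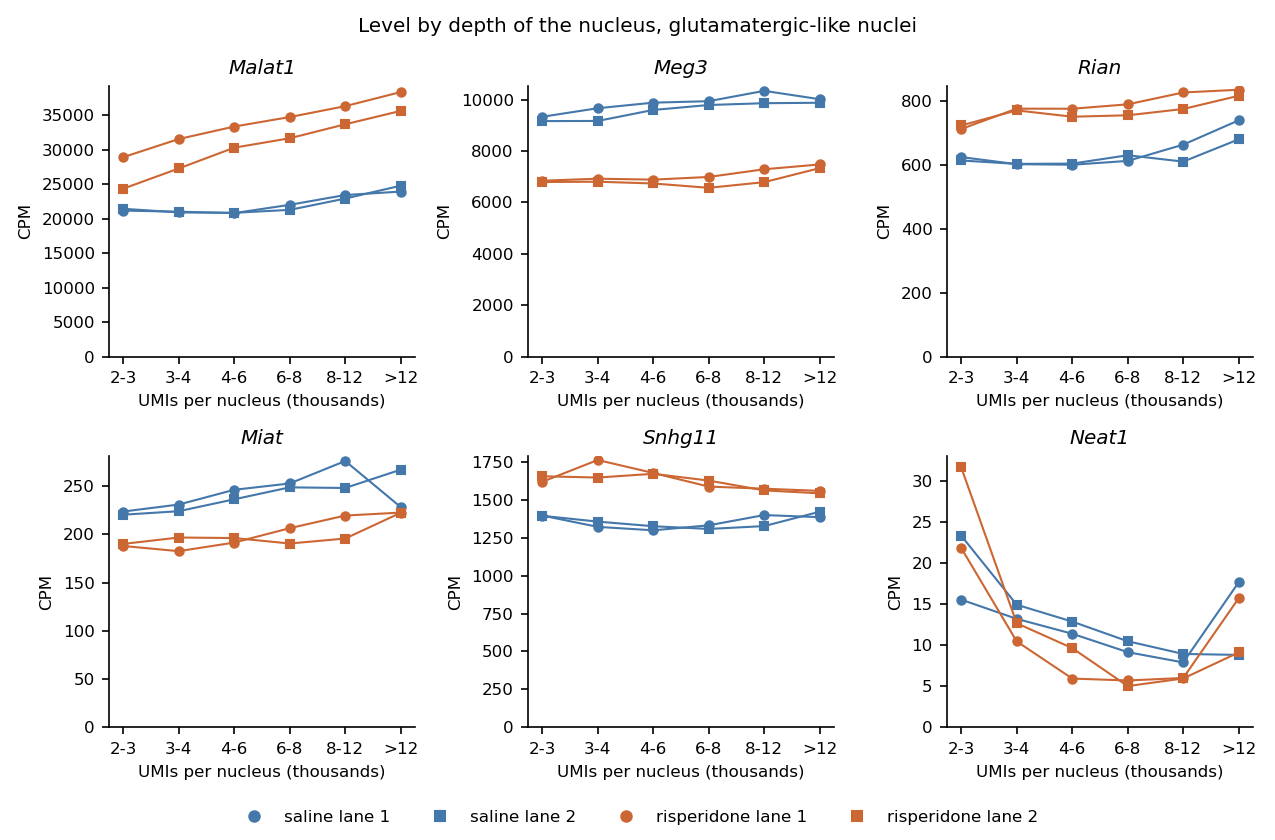
Points show the level of each lncRNA in CPM (vertical axis from 0) in glutamatergic-like nuclei of 6 ranges of UMIs per nucleus (horizontal axis, in units of 1000 UMIs), with saline in blue and risperidone in orange, lane 1 as circles and lane 2 as squares. The pools stay apart for Malat1, Meg3, Rian and Snhg11 in every range, and the Neat1 lines cross, going down over the first ranges and up again in the last range in 3 of the 4 lanes.

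Within glutamatergic-like nuclei, 12 clusters held at least 100 such nuclei in each lane. The mean Malat1 level ranged from 24482 CPM in cluster 14, led by Pappa and Tnxb, to 31827 CPM in cluster 15, led by Erg and Gm44593. Meg3 ranged from 6847 to 11482 CPM, Rian from 588 to 971, Snhg11 from 1248 to 1799 and Miat from 180 to 330 CPM. The lowest levels were in cluster 5 for Meg3, Rian and Snhg11 and in cluster 21 for Miat, which are led by genes of other cell types. For each gene the cluster with the highest mean lay above the one with the lowest in all 4 lanes. The ratio on CPM was positive in all 12 for Malat1 (0.45 to 0.72), Rian (0.22 to 0.40) and Snhg11 (0.15 to 0.39) and negative in all 12 for Meg3 (-0.55 to -0.41) and Miat (-0.51 to -0.18). The pools' lanes did not overlap in any of these. Over all glutamatergic-like nuclei this held for 89.4% of genes tested (TMM scaling), so nothing is read from it about the members. Neat1 was highest in cluster 11, between 65.2 and 102 CPM over the lanes, whose leading genes Prr5l and St18 are markers of oligodendrocytes. Cluster 5, led by the astrocyte genes Prdm16 and Slc1a3, had 63.0, 47.5, 49.9 and 71.0 CPM, and cluster 21, led by the microglial genes Ikzf1 and Inpp5d, 37.9, 40.5, 31.0 and 30.4 CPM. In the other 9 clusters the mean was at most 10.3 CPM.

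Proteins and neighbours linked to these RNAs were looked up in lists chosen with earlier results known. Of 18 paraspeckle proteins, all tested in all nuclei, none was called higher and 2 lower, with a median log2 ratio of 0.22. Over all genes tested 3.16% were called higher and 7.50% lower, the median was -0.05 and 43.6% had ratios above 0, against 15 of these 18. Smarca4 (128, 123, 92.8 and 93.3 CPM, log2 ratio -0.54) and Rbm14 (-0.53) were lower, and Hnrnph3 stood highest at 0.50. Of 18 nuclear speckle proteins none was called higher and 2 lower, beside the same 3.16% and 7.50%, and the median was -0.21 beside -0.05. The speckle scaffold Srrm2 went from 901 and 862 CPM to 531 and 546 CPM, a log2 ratio of -0.81, and Luc7l3 was at -0.59. None of 9 tested subunits and partners of Polycomb repressive complex 2, which Meg3 is reported to bind, was called (median 0.03). Among splicing factors that bind Miat, Sf1 was at -0.21 and Celf3 at -0.17.

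The maternal lncRNAs of the Dlk1-Dio3 region did not move together over all nuclei. Mirg, which lies beyond Rian, was at 88.5 and 87.7 CPM in saline and 78.5 and 74.2 CPM in risperidone, a log2 ratio of -0.32, between Meg3 (-0.55) and Rian (0.23). Begain, a protein-coding gene at the edge of the region, was at -0.64. Rtl1, the paternally expressed gene on the opposite strand and chosen here after its values were seen, stood at 4.84 and 5.35 CPM against 15.4 and 13.1 CPM. The 10 CPM minimum applies to the mean over the lanes, and the Rtl1 mean was under it. Dlk1 and Dio3 held 384 and 24 UMIs over all lanes. Of 16 other lncRNAs tested, Mirg included, Snhg20 was called higher (0.73) and Sox2ot lower (-0.50), and 7 had ratios above 0, beside 3.16%, 7.50% and 43.6% of all genes.

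Over the 8 classes, the genes whose mean levels were most like each member, by Pearson correlation of log2(CPM + 1) among 10048 genes, were as follows. Snhg14, Syp and Snhg11 were nearest to Meg3 (0.997, 0.994 and 0.994). For Rian they were B830012L14Rik, Snhg14 and Mirg (0.997, 0.995 and 0.994), of which B830012L14Rik and Mirg lie 33.9 and 68.0 kb from Rian on chromosome 12. Nrsn1, N4bp2l1 and Meg3 were nearest to Snhg11 (0.997, 0.996 and 0.994). Miat was nearest to Ak5, Ephb2 and Kcnt2 (0.993, 0.962 and 0.959), Neat1 to Hadh, Il33 and Selenop (0.992, 0.991 and 0.989) and Malat1 to Hebp1, Lrch4 and Zkscan6 (0.970, 0.957 and 0.952). Between members, Malat1 and Neat1 had 0.891 and Malat1 and Meg3 -0.733. These correlations rest on 8 points that share the lanes and the RNA of other nuclei.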

How the data were processed

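Nuclei of 4 lanes, 2 per pool, were profiled with the 10x GEM-X v4 kit. Per the labels and methods, the authors ran Cell Ranger 8.0.1 on an mm10 reference with intronic reads counted towards genes. The deposited matrices hold raw UMI counts of nuclei that Cell Ranger kept. Here, a nucleus needed 500 genes and no more than 5% of mitochondrial UMIs, and doublet-like nuclei (0.4% per 1000 nuclei, by similarity to simulated doublets) were removed, 3489, 3595, 2641 and 2168 per lane. The lanes held 119736937, 147909049, 168537139 and 203675013 UMIs. The saline lanes list no nucleus under 1364 and 1630 UMIs and the risperidone lanes list nuclei from 500, so a minimum of 2000 was used. Any pair of lanes shared 160 to 221 barcodes.

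A nucleus was given the class whose marker UMIs per 10000 most exceeded a threshold, by at least 1.5 times the second class. It also needed at least 2 to 4 marker UMIs, depending on the class. A glutamatergic-like nucleus could hold no UMI of Gad1, Gad2 or Slc32a1. These rules can act differently on nuclei of different depth, and their part in the differences between the pools was not tested. Thresholds were set after marker levels were seen. Classes took 59.5%, 60.8%, 69.3% and 71.4% of nuclei per lane. Nuclei were clustered with the Louvain algorithm (2000 variable genes without the members, 30 components, 20 neighbours, resolution 0.5, seed 1) as an alternative. UMIs were summed per class and lane and scaled by TMM factors (edgeR 4.0.16, R 4.3.3), with DESeq2 1.42.0 size factors as an alternative. No test was run, as each condition has 1 pool. Intervals are exact at 95% confidence. The counting of calls was tested on simulated data. The members and all lists were chosen with earlier results of these data known. Named genes are the members, the list genes with the largest and smallest ratios and the 3 genes most like each member. Rtl1, Dlk1, Dio3 and the leading genes of clusters were added after their values were seen. Alternatives covered scaling, the UMI and CPM minimums, doublets, class rules, sex-called nuclei, thinning, the RNA of other nuclei and each lane left out. Scripts ran in Python 3.11.15 (pandas 2.3.3, numpy 2.4.6, igraph 0.11.9, scipy 1.17.1, matplotlib 3.10.9). Gene positions and transcript sequences were taken from GENCODE vM21 (GRCm38). Of 32285 gene identifiers, 32158 (99.6%) had an entry there. The authors' reference is a later release of the same build. The transcript sequence of 1 member is not reported here.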

Additional observations from a re-analysis of the deposited data

Results flagged for a closer look

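Rian and Snhg11 had ratios of opposite sign in different classes, in every pair of lanes, although the positive ratios were under the threshold of 0.5 in every class. Rian had a log2 ratio of 0.26 in glutamatergic-like nuclei and -0.73 in astrocyte-like nuclei. Snhg11 had a log2 ratio of 0.31 in Lamp5-like interneurons and -0.93 in astrocyte-like nuclei. Of all genes tested, 89.4% had lanes that did not overlap in glutamatergic-like, 54.2% in Lamp5-like and 55.2% in astrocyte-like nuclei. With 1 pool per condition, the difference between the classes was not tested. Rian in astrocyte-like nuclei turned to 0.48 at a minimum of 4000 UMIs, and Snhg11 there was at -0.12. RNA of other nuclei was estimated at up to 0.67, 0.61, 0.88 and 0.77 times the Rian level of astrocyte-like nuclei and 0.55, 0.48, 0.72 and 0.69 times their Snhg11 level.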

How the results depend on the processing

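No paired analysis was possible because the lanes share only a number and each condition has 1 pool. In all nuclei, plain CPM gave log2 ratios of 0.64 (Malat1), -0.44 (Meg3), -0.24 (Miat), -0.57 (Neat1), 0.34 (Rian) and 0.27 (Snhg11), and a total without the 6 members 0.66, -0.43, -0.23, -0.55, 0.35 and 0.28 in the same order. Equal weight for each class gave 0.66, -0.66, -0.55, -0.21, 0.086 and 0.076, and male-called nuclei 0.58, -0.46, -0.27, -1.19, 0.28 and 0.19. Female-called nuclei gave -0.32 for Miat, -1.07 for Neat1, 0.27 for Rian and 0.20 for Snhg11. A minimum of 4000 UMIs gave -0.59 for Meg3, -0.41 for Miat, -0.41 for Neat1 and 0.21 for Rian. Without a minimum, Neat1 was at -0.47, Rian at 0.21 and Snhg11 at 0.14. Thinning gave -0.40 for Miat and 0.21 for Rian, keeping doublet-like nuclei 0.18 for Snhg11, and nuclei with a class alone, an alternative chosen after seeing the data, -0.58 for Meg3, -0.32 for Miat and -0.90 for Neat1. Leaving out 1 lane at a time kept each ratio near its value, from 0.52 to 0.56 for Malat1 and from -0.57 to -0.53 for Meg3.

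For neuronal over glial classes, clusters gave log2 ratios of 1.49 for Meg3 (1.89 as reported) and 0.32 for Miat (0.89). Taking out the estimated RNA of other nuclei gave -0.95 for Malat1, 4.69 for Meg3, 2.16 for Miat, -6.62 for Neat1, 2.89 for Rian and 2.74 for Snhg11. The estimate exceeded the measured Neat1 level in each PV-like lane (1.34, 1.05, 1.05 and 1.23 times). It also exceeded the Meg3 level of astrocyte-like nuclei in both risperidone lanes (1.12 and 1.26 times). The same held for Miat in both risperidone lanes of PV-like nuclei (1.54 and 1.69 times). For Rian it held in risperidone lane 1 of oligodendrocyte-like nuclei (1.02 times). The size of the Neat1, Meg3, Miat and Rian ratios after this step is therefore not read. At a minimum of 1 CPM 1456 genes were called higher and 1233 lower, without a minimum 4750 and 3528, and on plain CPM 479 and 289. Within classes, 3 called ratios turned their sign, all at a minimum of 4000 UMIs, to 0.48 for Rian and 0.82 for Miat in astrocyte-like nuclei and 0.28 for Meg3 in precursor-like nuclei, where few nuclei are left. At that minimum Malat1 (0.40) and Snhg11 (-0.12) in astrocyte-like and Rian (-0.043) and Snhg11 (-0.051) in oligodendrocyte-like nuclei fell under the threshold of 0.5. Plain CPM did so for Meg3 in glutamatergic-like (-0.48) and Lamp5-like (-0.45) and Miat in precursor-like nuclei (-0.45), clusters for Rian (-0.24) and Snhg11 (-0.14) in oligodendrocyte-like nuclei, and taking out the RNA of other nuclei for Malat1 in PV-like (0.39) and Miat in oligodendrocyte-like nuclei (-0.22). A total without the 6 members ended the same Meg3 and Miat calls as plain CPM and that of Meg3 in PV-like nuclei. Male-called nuclei ended those of Meg3 in Lamp5-like (-0.40), of Rian in astrocyte-like (-0.46) and of Rian (-0.40) and Snhg11 (-0.30) in oligodendrocyte-like nuclei. Of 832 alternative values within classes, 804 kept the sign, with 123 of 136 for Neat1 and 131 of 140 for Snhg11. These values reuse nuclei of the same pools, so a kept sign was largely set in advance and is no support for a direction. The causes of these shifts were not tested. Glial ratios rest on few nuclei, 90 to 644 per class and lane.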
